A study of Homo sapiens with 6 samples.

Results

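The aminoacyl-tRNA synthetases described here were chosen as a list of 37 gene symbols, 21 cytosolic and 16 mitochondrial, of the 34913 genes with an annotated transcript in the deposited tables. Their RNA was measured in 6 RNA-seq libraries of THP1, a human monocytic line established from acute myeloid leukaemia. They form 3 labelled groups of 2 libraries: ALKBH5 rescue (the knock-down with ALKBH5 restored), shALKBH5 (a hairpin against ALKBH5) and shCtrl (a hairpin control whose genotype is labelled wild-type). All groups are unsorted cultures of the same line, and the sources used here do not say whether the modified lines were single clones or how the rescue was expressed. Each group has a replicate number 1 and a replicate number 2. No label states separate cultures for them, so the spread behind every p-value is that of these 6 libraries and may be technical.

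A synthetase joins one amino acid to the tRNAs that carry its codons, so each amino acid needs its own enzyme. Cytosolic and mitochondrial protein synthesis mostly use separate nuclear genes for the same amino acid, while KARS and GARS encode the lysine and glycine enzymes of both compartments. The enzymes fall into class I and class II, which have unrelated catalytic folds. In animal cells 8 of the cytosolic ones join the scaffold proteins AIMP1, AIMP2 and EEF1E1 in a multisynthetase complex. Uncharged tRNA activates the kinase GCN2, which phosphorylates eIF2 and raises translation of the transcription factor ATF4. Many cytosolic synthetase genes are reported ATF4 targets, and WARS is also known for its induction by interferon gamma.

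ALKBH5 itself did not follow the group labels. It stood at 938, 973 and 1064 CPM (counts scaled by library size) in the libraries numbered 2 that are labelled ALKBH5 rescue, shALKBH5 and shCtrl, and at 13.1, 12.0 and 14.2 CPM in those numbered 1, in the same order. Directions between the labelled groups are therefore those of the libraries as labelled. Library totals ran from 14534386 to 24857373 estimated counts, and all 37 synthetase genes passed the filter on low counts, with 73 to 8623 estimated counts per gene and library. All 8 monocytic markers were tested, while 1 of 6 T and NK cell markers, 1 of 5 erythroid and 1 of 5 epithelial and fibroblast markers passed the filter. Of 5 B cell markers 3 passed it, and their summed level was 11.0 to 13.1 CPM in the libraries numbered 2 against 6.74 to 8.42 CPM in those numbered 1. PAX5 and CD79B were called higher in number 2, while the third had a log2 value of -0.15 and was not called. The summed TPM of the B cell markers overlapped, at 8.67 to 11.5 in number 2 and 7.41 to 12.1 in number 1. The T and NK cell markers summed to 14.4 to 18.5 CPM in number 2 and 18.9 to 21.4 CPM in number 1. Their summed TPM overlapped, and the 1 that passed the filter was not called (log2 -0.31). Of the monocytic markers 3 were called higher and 2 lower in number 2, beside 23.1% and 22.9% of all genes. The part of such differences in the results was not tested.

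Per length, cytosolic synthetase RNAs stood above mitochondrial ones. The deposited TPM values divide by transcript length and allow levels of different genes to be compared. The 21 cytosolic genes together held 2744, 2628 and 2615 TPM in the libraries numbered 2 labelled ALKBH5 rescue, shALKBH5 and shCtrl, and 2317, 2354 and 2406 TPM in those numbered 1. The 16 mitochondrial genes held 419.8, 405.6 and 398.1 TPM in the libraries numbered 2, and 422.2, 404.4 and 445.2 TPM in those numbered 1. Mean levels over the 6 libraries had a median of 125 TPM among the cytosolic and 19.6 TPM among the mitochondrial genes. Of the cytosolic genes 13 lay above 100 TPM, and none of the mitochondrial ones did.

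The highest cytosolic levels were those of TARS, the threonine enzyme, at 271 ± 27.2 TPM (SD, n = 6), QARS, the glutamine enzyme, at 225 ± 42.2 TPM, and NARS, the asparagine enzyme, at 163 ± 27.7 TPM. NARS, WARS, GARS and FARSA followed one another by steps of 2.23, 1.08 and 0.28 TPM, less than the spread of any of them. The lowest were TARSL2, a second threonine enzyme, at 3.82 ± 0.831 TPM, FARSB at 30.7 ± 6.66 TPM and CARS at 49.0 ± 11.1 TPM. Among the mitochondrial enzymes IARS2 stood highest at 76.7 ± 8.09 TPM, before CARS2 at 54.9 ± 8.60 TPM and TARS2 at 50.6 ± 9.64 TPM, and the last 2 differed by less than their spread. VARS2 stood lowest at 2.64 ± 0.563 TPM, after PARS2 at 4.43 ± 0.447 TPM and FARS2 at 6.89 ± 2.32 TPM. These SDs include the difference between replicate numbers described next.

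**Figure D1:**
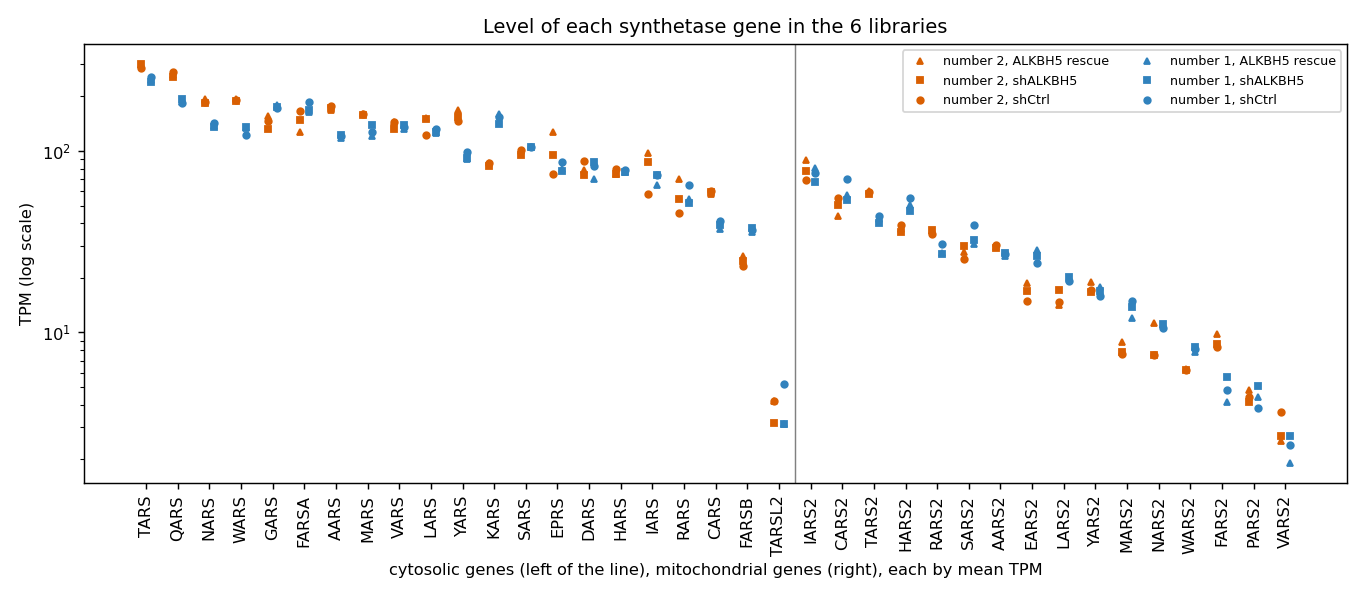
TPM of each synthetase gene in the 6 libraries on a log axis, with libraries numbered 2 in orange on the left of each gene and those numbered 1 in blue on the right, and 1 symbol per labelled group. Cytosolic genes run from TARS at a mean of 271 TPM to TARSL2 at 3.82 TPM, and mitochondrial genes from IARS2 at 76.7 TPM to VARS2 at 2.64 TPM.

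Cytosolic and mitochondrial genes of the same amino acid were far apart for some enzymes and level for others. VARS stood at 53.9 ± 9.59 times the TPM of VARS2 (SD of the ratio, n = 6), EPRS, the fused glutamate and proline enzyme, at 20.4 ± 4.23 times PARS2, and WARS at 23.4 ± 7.97 times WARS2. FARSA, the alpha subunit of the phenylalanine enzyme, stood at 26.4 ± 11.5 times FARS2. VARS was assigned 72 transcripts on alternative scaffolds and VARS2 0, and the part of this in the ratio of VARS to VARS2 was not tested. IARS and IARS2 had a ratio of 0.984 ± 0.135, and CARS and CARS2 one of 0.926 ± 0.310 that ran from 0.587 to 1.32. The last ratio lay above 1 in the libraries numbered 2 and below 1 in those numbered 1.

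Between the replicate numbers 20 of these 37 genes were called and 17 were not, while none was called between the labelled groups. The labels do not say what a number stands for, and the groups are crossed with it, so each number holds 1 library of every group. With group and replicate number in the fit, 6721 of 14595 genes differed between number 2 and number 1 (edgeR's quasi-likelihood test, adjusted p under 0.05), a background of 46.1% (23.1% higher and 22.9% lower in number 2). Of the 21 cytosolic synthetase genes 7 rose and 3 fell in number 2, and 11 did not pass. Among the 16 mitochondrial genes 2 rose and 8 fell, and 6 did not pass. As shares these are 33.3% higher and 14.3% lower for the cytosolic genes, and 12.5% higher and 50.0% lower for the mitochondrial ones. The median log2 fold change was 0.05 over the cytosolic and -0.23 over the mitochondrial genes, beside 0.01 over all genes tested. None of the 37 reached a 2-fold change. In RNA from pooled cells, fewer cells with a transcript and less of it per cell cannot be told apart.

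The summed level shows the same split. Cytosolic synthetases summed to 3879, 3797 and 3966 CPM in the libraries numbered 2 labelled ALKBH5 rescue, shALKBH5 and shCtrl, against 3761, 3513 and 3711 CPM in those numbered 1. Mitochondrial synthetases summed to 693.6, 682.9 and 710.3 CPM in number 2, against 782.9, 741.2 and 781.1 CPM in number 1. The cytosolic sum was higher and the mitochondrial sum lower in number 2, without overlap between the numbers. On the TPM scale, where the median gene of 12214 at 1 TPM or more stood 0.11 log2 units higher in number 2, the mitochondrial sums overlapped. The ratio of cytosolic to mitochondrial TPM was 6.54, 6.48 and 6.57 in number 2 and 5.49, 5.82 and 5.40 in number 1. Every library numbered 2 lay above every library numbered 1. By mean TPM all 20 called synthetase genes kept their direction, and 17 of them had no overlap between the numbers, the exceptions being VARS, CARS2 and NARS2. TPM values come from the same estimated counts by which these genes were called, so this is no separate evidence. TARS, GARS, MARS, RARS2 and AARS2, which were not called, had no overlap in TPM either. The share of all genes without overlap was not computed in TPM. In CPM 12 of the 37 genes lay higher and 12 lower in number 2 without overlap, beside 57.8% of all 14595 genes in either direction.

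**Figure D2:**
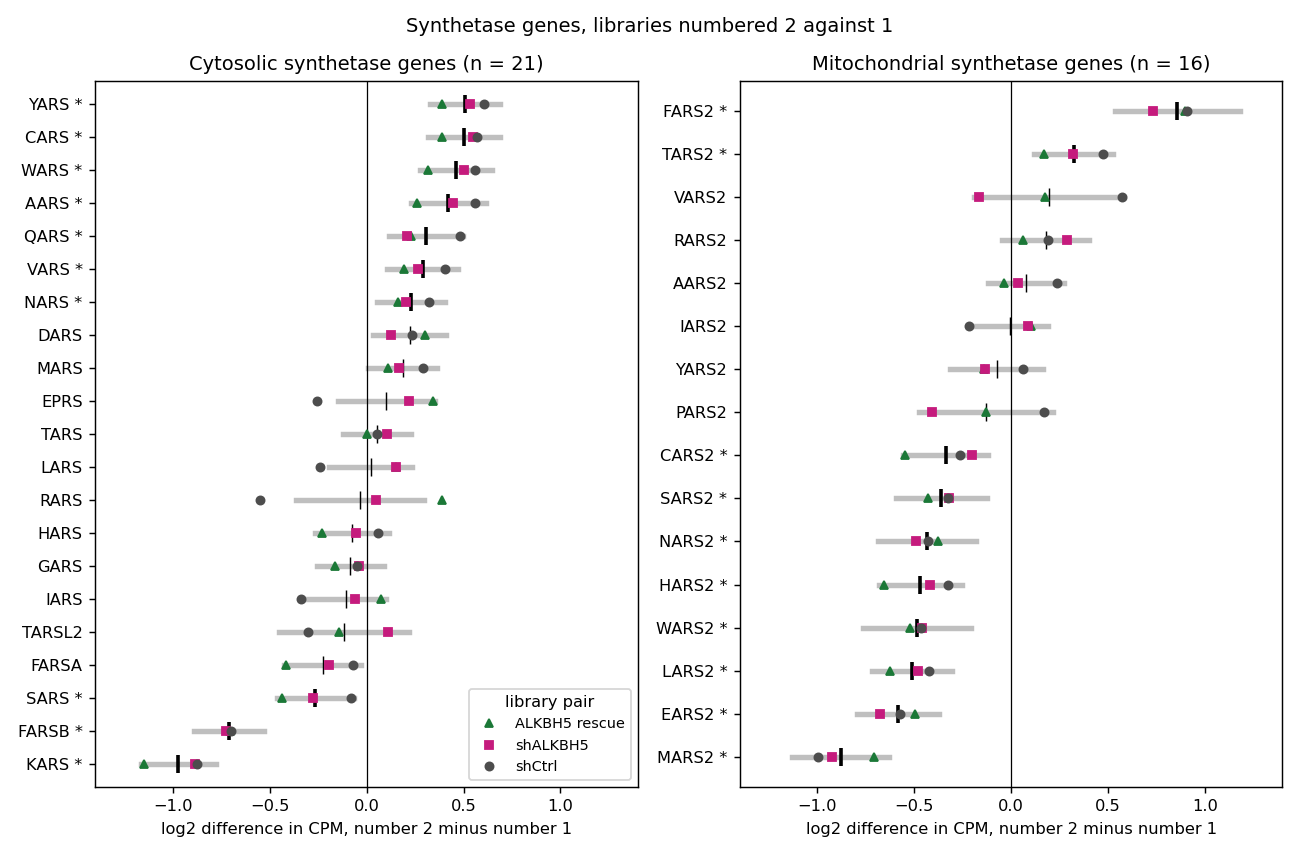
Log2 difference in CPM of number 2 minus number 1 for each synthetase gene, with 1 coloured point for the pair of libraries in each labelled group, a black bar for the fitted value, a grey line for its 95% interval and a star for genes called at an adjusted p under 0.05. The stars mark 7 cytosolic genes on the right and 3 on the left, and 2 mitochondrial genes on the right and 8 on the left.

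The cytosolic genes that rose were led by YARS, CARS, WARS and AARS. YARS, which charges tyrosine, stood at 210.0, 208 and 224 CPM in the libraries numbered 2 labelled ALKBH5 rescue, shALKBH5 and shCtrl, and at 160.3, 144 and 148 CPM in those numbered 1, in the same order. Every library numbered 2 lay above every library numbered 1, at 1.42 times the level (log2 fold change 0.51, SE 0.082, adjusted p = 0.000844). CARS, the cysteine enzyme, was at 96.8, 100.5 and 111 CPM in number 2 and at 73.9, 68.7 and 74.7 CPM in number 1. The numbers did not overlap, and the fold was 1.42 (log2 0.50, SE 0.083, adjusted p = 0.00101). Between 95.9% and 98.8% of the counts of CARS came from transcripts of its copy on an alternative scaffold. Counted on the reference chromosomes alone, an alternative added after seeing the data, its log2 value was -0.51 with an adjusted p of 0.173. The direction of CARS therefore rests on those copies.

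WARS, the tryptophan enzyme, was at 167, 166 and 185 CPM in the libraries numbered 2 and at 134, 117 and 125 CPM in those numbered 1. Its numbers did not overlap, with a fold of 1.38 (log2 0.46, SE 0.083, adjusted p = 0.00167). Transcripts with a coding length of 430 codons held 60.4% to 62.4% of its counts in number 2 and 63.4% to 67.4% in number 1, and those with 471 codons held 21.6% to 23.9% in number 2 and 17.6% to 22.9% in number 1. The first share was lower in every library numbered 2, and the second overlapped. AARS, the alanine enzyme, was at 356, 383 and 422 CPM in number 2 and at 298, 281 and 286 CPM in number 1, a fold of 1.34 with no overlap (log2 0.42, SE 0.087, adjusted p = 0.00343). QARS came next, at 180.0, 181 and 209 CPM in number 2 and 154, 157 and 149 CPM in number 1 (log2 0.31, SE 0.086, adjusted p = 0.0158). VARS, the valine enzyme, had a log2 value of 0.29 (adjusted p = 0.0163) and NARS one of 0.23 (adjusted p = 0.038). Copies on an alternative scaffold held 82.9% to 86.8% of the counts of VARS, and without them its log2 value was 0.32 (adjusted p = 0.034). For all 7 genes the pair of libraries of every labelled group showed the same direction. With either library labelled shALKBH5 left out in turn, 3 of the 7 were called, namely YARS, CARS and WARS. NARS also lost its call without either library labelled shCtrl, and QARS and VARS lost theirs without that labelled shCtrl replicate 2.

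KARS and FARSB fell most among the cytosolic genes. KARS, the lysine enzyme of both compartments, stood at 112, 110.0 and 121 CPM in the libraries numbered 2 labelled ALKBH5 rescue, shALKBH5 and shCtrl, and at 248, 203 and 223 CPM in those numbered 1. It was 1.96-fold lower in number 2 (log2 -0.97, SE 0.087, 95% interval -1.17 to -0.78, adjusted p = 3.57e-05), and the lowest library numbered 1 lay above the highest numbered 2. The transcript of 597 codons held 83.8% to 85.8% of its counts in number 2 and 83.1% to 86.4% in number 1, and the one of 625 codons held 8.44% to 12.2% in number 2 and 7.68% to 12.4% in number 1. The ranges of both shares overlapped between the numbers. KARS shares 858 bases with TERF2IP on the opposite strand, and strand use in the counting is not given. Other called genes also share bases with a protein-coding neighbour, such as YARS with S100PBP (1387 bases) and WARS with WDR25 (388). Among the mitochondrial genes CARS2 does so with ING1 (868), HARS2 with ZMAT2 (639, same strand), EARS2 with UBFD1 (370) and SARS2 with MRPS12 (349).

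FARSB, the beta subunit of the phenylalanine enzyme, was at 61.5, 59.1 and 59.3 CPM in number 2 and at 100.4, 97.8 and 96.3 CPM in number 1, 1.64-fold lower (log2 -0.71, SE 0.081, adjusted p = 0.000125). FARSA, the alpha subunit of the same enzyme, was at 144, 151 and 171 CPM in number 2 and at 191, 173 and 179.9 CPM in number 1. Its numbers did not overlap either, but its log2 value of -0.23 did not pass (adjusted p = 0.0598). The 2 subunits assemble into 1 enzyme, and the difference between their changes was not tested. SARS, the serine enzyme, which also charges the selenocysteine tRNA with serine, had a log2 value of -0.27 (SE 0.09, adjusted p = 0.0344) and was not called without either library labelled shALKBH5 or either labelled ALKBH5 rescue.

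**Figure D3:**
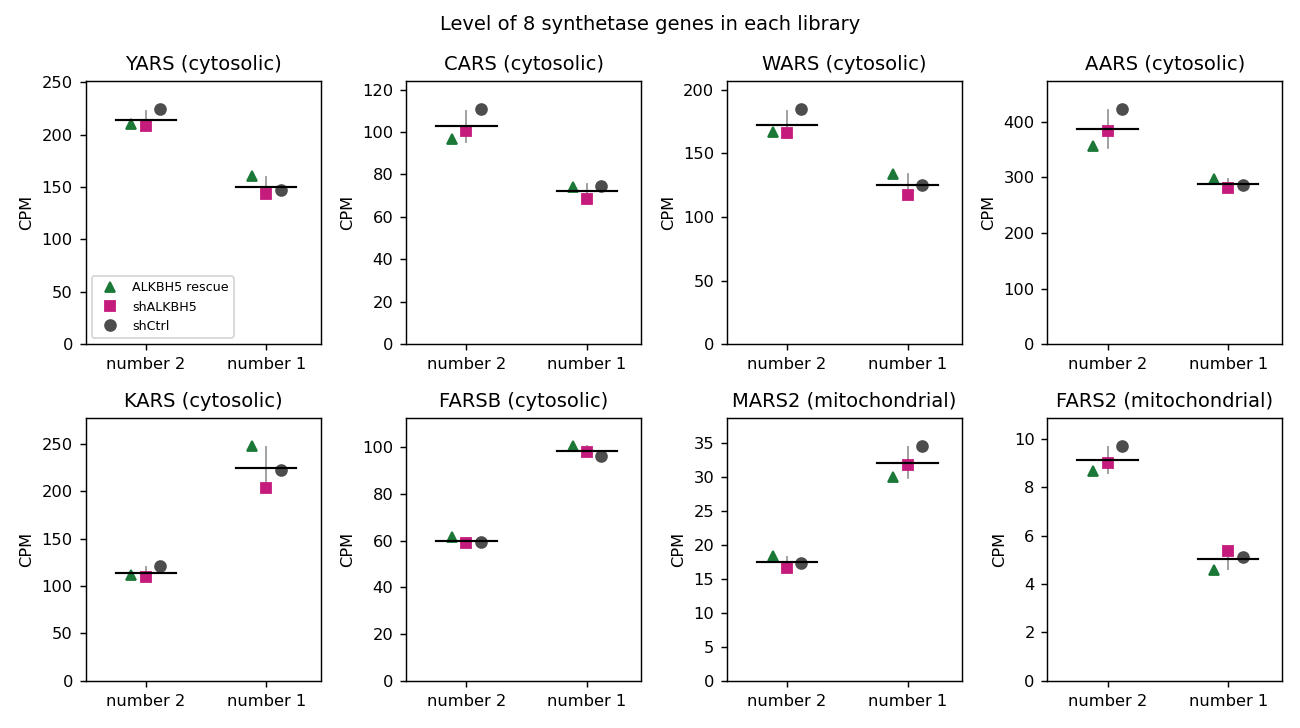
CPM of 8 synthetase genes in each library, number 2 on the left and number 1 on the right, with 1 symbol per labelled group, a line for the mean and a grey bar for the SD (n = 3). YARS, CARS, WARS, AARS and FARS2 lie higher in every library numbered 2, and KARS, FARSB and MARS2 lie lower.

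The 11 cytosolic genes that did not pass had log2 values between -0.23 and 0.22. HARS, the histidine enzyme, was at 92.9, 100.0 and 111 CPM in number 2 and at 109, 104 and 106 CPM in number 1, and the numbers overlapped (log2 -0.07, adjusted p = 0.506). GARS, the glycine enzyme, had a log2 value of -0.08 (adjusted p = 0.41) and EPRS one of 0.10 (adjusted p = 0.488). TARSL2 was at 6.56, 6.42 and 7.54 CPM in number 2 and at 7.24, 5.93 and 9.33 CPM in number 1 (log2 -0.12, adjusted p = 0.554). DARS and MARS, the aspartate and methionine enzymes, lay higher in every library numbered 2 with adjusted p values of 0.054 and 0.0798. MARS shares 13370 bases with ARHGAP9 and 982 with DDIT3 on the opposite strand. Leaving out 1 library brought 4 of the 11 past the threshold: EPRS at 0.28 to 0.33 without either library labelled shCtrl, FARSA at -0.30 without that labelled shCtrl replicate 2, MARS at 0.23 without either labelled ALKBH5 rescue and RARS at -0.25 without either labelled ALKBH5 rescue. In RARS, the arginine enzyme, the labelled groups differed in sign, with number 2 minus number 1 at 0.39 in the pair labelled ALKBH5 rescue, 0.05 in shALKBH5 and -0.55 in shCtrl.

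MARS2 and EARS2 led the mitochondrial genes that fell. MARS2, which charges the mitochondrial methionine tRNA, stood at 18.4, 16.6 and 17.3 CPM in the libraries numbered 2 labelled ALKBH5 rescue, shALKBH5 and shCtrl, and at 30.1, 31.8 and 34.6 CPM in those numbered 1. It was 1.84-fold lower in number 2 with no overlap (log2 -0.88, SE 0.11, adjusted p = 0.000239). EARS2, the mitochondrial glutamate enzyme, which also places glutamate on the glutamine tRNA, was at 38.7, 36.4 and 38.3 CPM in number 2 and at 54.6, 58.3 and 57.1 CPM in number 1. The numbers did not overlap, and it was 1.50-fold lower in number 2 (log2 -0.58, SE 0.095, adjusted p = 0.000887). LARS2, the leucine enzyme, was at 38.8, 42.3 and 44.3 CPM in number 2 and at 59.8, 59.2 and 59.5 CPM in number 1 (log2 -0.51, SE 0.094, adjusted p = 0.00178). WARS2, the tryptophan enzyme, was at 7.99, 10.1 and 8.83 CPM in number 2 and at 11.5, 13.9 and 12.2 CPM in number 1 (log2 -0.49, SE 0.12, adjusted p = 0.0103). In all 4 genes every library numbered 2 lay below every library numbered 1.

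HARS2, the mitochondrial histidine enzyme, was at 48.8, 49.2 and 58.8 CPM in number 2 and at 77.0, 65.8 and 73.8 CPM in number 1, 1.38-fold lower (log2 -0.47, SE 0.096, adjusted p = 0.00325). HARS2 and HARS lie head to head on chromosome 5 (HARS at 140673904 to 140691862, minus strand, and HARS2 at 140691426 to 140699318, plus strand, GRCh38) and share 437 bases. HARS did not pass, and without strand reads in the shared stretch cannot be assigned between them. NARS2, SARS2 and CARS2, the asparagine, serine and cysteine enzymes, also fell, with log2 values of -0.43, -0.36 and -0.34 and adjusted p values of 0.0109, 0.0189 and 0.0184. Copies on an alternative scaffold held 50.0% of the counts of SARS2 in every library, and without them its log2 value was -0.36 (adjusted p = 0.0334). Without either library labelled shALKBH5, 4 of the 8 were called, namely MARS2, EARS2, LARS2 and HARS2. SARS2 also lost its call without the library labelled shCtrl replicate 1.

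FARS2 and TARS2 were the mitochondrial genes that rose. FARS2, a single-chain phenylalanine enzyme, was at 8.65, 9.01 and 9.70 CPM in number 2 and at 4.59, 5.38 and 5.12 CPM in number 1, 1.81 times as high with no overlap (log2 0.86, SE 0.14, adjusted p = 0.00109). Its transcript FARS2-201 held 105 to 144 estimated counts per library in number 2 and 34.6 to 49.9 in number 1. FARS2-202, which codes for the same length of 451 codons, held 35.5 to 44.1 in number 2 and 24.4 to 56.8 in number 1. The numbers separated for the first transcript and overlapped for the second. TARS2, the threonine enzyme, was at 72.8, 77.1 and 82.7 CPM in number 2 and at 64.6, 61.7 and 59.5 CPM in number 1 (log2 0.32, SE 0.092, adjusted p = 0.0167), and without either library labelled shALKBH5, or without that labelled shCtrl replicate 2, it was not called. The 6 mitochondrial genes that did not pass, PARS2, YARS2, IARS2, AARS2, RARS2 and VARS2, had log2 values from -0.13 to 0.19.

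Set side by side, the cytosolic and mitochondrial genes for an amino acid make 17 pairs. In 4 pairs both genes were called and had opposite signs. CARS, WARS and NARS rose while CARS2, WARS2 and NARS2 fell, and FARSB fell while FARS2 rose. Of all single genes 23.1% were called higher and 22.9% lower, and no share of opposite pairs was computed over other genes. The direction of CARS rests on its alternative-scaffold copy. NARS, CARS2, WARS2 and NARS2 lost their calls with some libraries left out in turn, while FARSB and FARS2 kept theirs with any library left out. In 1 pair, SARS and SARS2, both fell. In 9 pairs 1 gene of the pair was called, and in 3 neither was. No pair had both genes called higher. FARS2 and EPRS each stand in 2 of the pairs, and the difference within a pair was not tested.

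**Figure D4:**
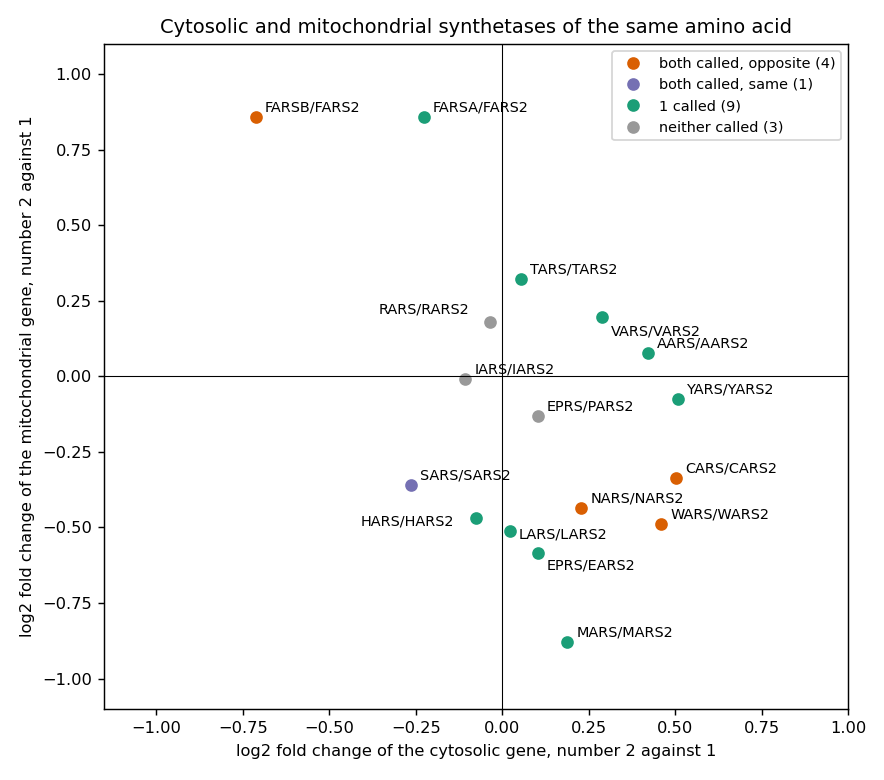
Log2 fold change of number 2 against number 1 for the cytosolic gene (horizontal) and the mitochondrial gene (vertical) of each of 17 pairs, coloured by which genes were called. CARS/CARS2, WARS/WARS2 and NARS/NARS2 lie at the lower right, FARSB/FARS2 at the upper left and SARS/SARS2 at the lower left.

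By catalytic class, of the 9 class I genes 5 rose and 0 fell, and of the 11 class II genes 2 rose and 3 fell, with EPRS counted in neither because it holds an enzyme of each class. Over all genes 23.1% were called higher and 22.9% lower, and the difference between the classes was not tested. The class I genes summed to 1742, 1700 and 1774 CPM in the libraries numbered 2 labelled ALKBH5 rescue, shALKBH5 and shCtrl, against 1501, 1438 and 1513 CPM in those numbered 1. The class II genes summed to 1749, 1759 and 1912 CPM in number 2 and 1954, 1785 and 1864 CPM in number 1, and these overlapped. Of the 8 synthetases of the multisynthetase complex QARS rose, KARS fell and 6 did not pass, a smaller share called than the 46.1% of all genes. Among its 3 scaffold genes AIMP2 fell, at 26.6, 25.1 and 34.1 CPM in number 2 and 61.4, 49.6 and 53.4 CPM in number 1 (log2 -0.94, SE 0.12, adjusted p = 0.000231). AIMP1 and EEF1E1 had log2 values of 0.34 and 0.36 with adjusted p values of 0.18 and 0.132. Both were called, at 0.63 to 0.68 and at 0.59 to 0.64, without either library labelled shCtrl.

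Of 12 synthetase genes on a list of reported ATF4 targets 5 rose, YARS, CARS, WARS, AARS and NARS, and SARS fell, so that 6 of 12 were called, near the 46.1% of all genes (23.1% higher and 22.9% lower). Their median log2 value was 0.14, beside 0.01 over all genes. Of 26 other reported ATF4 targets 15 rose and 2 fell, with a median of 0.37. CHAC1, a glutathione-degrading enzyme, was at 22.8, 25.8 and 27.6 CPM in number 2 and 7.50, 6.26 and 7.72 CPM in number 1 (log2 1.82, adjusted p = 1.22e-05). SESN2 had a log2 value of 1.79 and PHGDH, the first enzyme of serine synthesis, one of 1.31, while SLC7A5, a carrier of large neutral amino acids, fell by 1.14 on the log2 scale. Of 7 genes of the eIF2 kinase pathway 4 rose and 1 fell. ATF4 was at 429.5, 458 and 509.7 CPM in number 2 and 389, 359.9 and 348 CPM in number 1 (log2 0.35, adjusted p = 0.0137), and it was not called without either library labelled shALKBH5 or without that labelled shCtrl replicate 2. EIF2AK2, EIF2AK3 and EIF2AK4, the kinases PKR, PERK and GCN2, had log2 values of 0.91, 0.82 and 0.27, all called, and the call of EIF2AK4 was lost without the same 3 libraries as that of ATF4. Of 14 interferon response genes 10 rose and 1 fell, with a median of 0.82. IFIT2 led them by p at 65.1, 56.7 and 60.1 CPM in number 2 and 12.2, 10.6 and 12.5 CPM in number 1. These values moved beside those of WARS, and their part in it was not tested.

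The letters of the promoters were searched for 4 motifs on both strands. RefSeq promoters of GRCh38.p14, from 250 bases before to 50 after the RefSeq start, matched 30 of the 37 genes. The others were DARS, LARS, TARSL2, VARS, YARS, AARS2 and VARS2. The core of the C/EBP-ATF response element, TGATGNAA, the composite site bound by ATF4 with C/EBP partners, was found in 6 of 16 cytosolic promoters and in 1 of 14 mitochondrial ones, YARS2, beside 3.62% of all 35116 promoters. These matches are shown because 5 of the 6 cytosolic ones lie within 15 bases of the RefSeq start. The gene annotation used for the sums begins these 5 genes further upstream, such as MARS at 57475445. Capitals mark the match on the strand of the gene, and all but that of NARS read on the opposite strand.
AARS chr16:70289678-70289713, minus strand: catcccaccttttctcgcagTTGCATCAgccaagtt
CARS chr11:3057410-3057445, minus strand: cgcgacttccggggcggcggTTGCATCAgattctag
NARS chr18:57621807-57621842, minus strand: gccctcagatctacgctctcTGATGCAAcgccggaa
IARS chr9:92293695-92293730, minus strand: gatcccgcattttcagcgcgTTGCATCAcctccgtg
MARS chr12:57488044-57488079, plus strand: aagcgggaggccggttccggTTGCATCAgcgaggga
TARS chr5:33440947-33440982, plus strand: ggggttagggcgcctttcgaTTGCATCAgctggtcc

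AARS, CARS and NARS, which rose, hold the core, as do IARS, MARS and TARS, which did not pass, so 3 of 5 promoters of cytosolic genes that rose, 0 of 3 that fell and 3 of 8 that did not pass had it. The matched letters were identical in all 6 genes. WARS and QARS, which also rose, had no match in this window. The E-box CACGTG was found in 3 of 8 promoters of mitochondrial genes that fell, CARS2, EARS2 and MARS2, and in IARS, beside 7.26% of all promoters. These 3 are shown because the match starts within 15 bases before the RefSeq start in each. The gene annotation used for the sums begins CARS2 and EARS2 further upstream, at 110713603 and 23557731.
CARS2 chr13:110706505-110706538, minus strand: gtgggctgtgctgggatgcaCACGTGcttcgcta
EARS2 chr16:23557352-23557385, minus strand: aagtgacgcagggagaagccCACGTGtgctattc
MARS2 chr2:197705338-197705371, plus strand: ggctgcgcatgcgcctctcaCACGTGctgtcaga

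Capitals mark the E-box, which reads the same on both strands. The core of the interferon-stimulated response element, searched as GAAA, any 2 bases and GAAA, was found in EARS2 alone (3.57% of all promoters). The gamma-activated site, TTCNNNGAA, was found in CARS, TARS, PARS2 and WARS2 (7.66% of all). No matches of different motifs overlapped. A match describes letters and not binding.

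Genes that act with the synthetases are set against the 22.9% of all genes called lower and the 23.1% called higher in number 2, and no list was tested as a whole. Of 4 genes that amidate or formylate mitochondrial aminoacyl-tRNAs 2 fell, GATB at 12.6, 13.5 and 11.1 CPM in number 2 and 25.6, 21.8 and 23.0 CPM in number 1 (log2 -0.92, adjusted p = 0.000313) and QRSL1 with a log2 value of -0.38. These 2 encode subunits of the amidotransferase that converts the glutamate placed by EARS2 into glutamine. MTFMT, which formylates the methionine placed by MARS2, had a log2 value of -0.20 (adjusted p = 0.205). Of 6 editing and selenocysteine genes 3 fell and 0 rose. AARSD1, which removes wrong amino acids from alanine tRNA, was at 20.2, 20.9 and 24.0 CPM in number 2 and 41.9, 43.3 and 40.6 CPM in number 1 (log2 -0.95, adjusted p = 0.000135), and SEPHS2, which makes selenophosphate, had a log2 value of -0.75.

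Of 19 genes of tRNA maturation 11 fell and 2 rose, with a median of -0.38. POP1, a protein of RNase P, had a log2 value of -0.60 and ELAC2, which trims tRNA 3′ ends, one of -0.57. Of 15 genes of RNA polymerase III and its factors 7 fell and 2 rose, and their summed TPM was 1.005 times as high in number 2 as in number 1. POLR3G fell by 1.35 on the log2 scale while POLR3GL, its paralog in the same enzyme, rose by 0.56. Of 4 genes of elongation factor 1, which carries charged tRNAs to the ribosome, EEF1G and EEF1D fell, with log2 values of -0.39 and -0.31. Of 6 mitochondrial elongation and initiation factors TSFM and MTIF2 fell (-0.81 and -0.36) and MTIF3 rose (0.65), so that 3 of 6 were called, near the 46.1% of all genes. QRSL1, EEF1G, EEF1D and MTIF2 were not called without either library labelled shALKBH5.

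Between the labelled groups no synthetase gene passed. edgeR, like DESeq2 and limma-voom, called 0% of 14595 genes in each of the 3 comparisons. Unadjusted p values under 0.05 were found for 41 genes in ALKBH5 rescue against shALKBH5, 47 in ALKBH5 rescue against shCtrl and 40 in shALKBH5 against shCtrl. None of the 37 synthetase genes was among them. The 3 comparisons share libraries, so their values are not independent. The fit behind these p values had no term for the replicate number, so its spread includes the difference between numbers. With replicate number as a block, 286, 234 and 350 genes had an unadjusted p under 0.05 in the same order. The block called 0, 1 and 1 genes, neither a synthetase.

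For ALKBH5 rescue against shALKBH5 the smallest p values were those of VARS2, NARS2 and IARS2. VARS2 was at 5.73 and 5.05 CPM in ALKBH5 rescue replicates 2 and 1 as labelled, against 6.21 and 6.98 CPM in shALKBH5 replicates 2 and 1 (log2 -0.29, SE 0.29, edgeR adjusted p = 1). NARS2 had a log2 value of 0.29 (95% interval -0.42 to 1.00), with 0.35 within number 2 and 0.24 within number 1. IARS2 stood at 0.16 (95% interval -0.24 to 0.57). For ALKBH5 rescue against shCtrl VARS2 had a log2 value of -0.47 (95% interval -1.19 to 0.25), TARSL2 one of -0.29 and CARS2 one of -0.23, all with an edgeR adjusted p of 1.

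For shALKBH5 against shCtrl TARSL2 had the smallest p of the 37. Its level was 6.42 and 5.93 CPM in shALKBH5 replicates 2 and 1 as labelled, against 7.54 and 9.33 CPM in shCtrl replicates 2 and 1. Both libraries labelled shALKBH5 lay below both labelled shCtrl, with differences of -0.23 within number 2 and -0.64 within number 1 (log2 -0.45, SE 0.25, edgeR adjusted p = 1). With the block its log2 value was -0.44 (95% interval -0.85 to -0.03, unadjusted p = 0.0387, adjusted p = 0.975). These levels rest on 107 to 146 estimated counts per library. CARS2 and GARS followed, with log2 values of -0.21 (95% interval -0.81 to 0.39) and -0.12 (95% interval -0.50 to 0.26).

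Over the lists, the median log2 value of the cytosolic genes was 0.05 for ALKBH5 rescue against shALKBH5, -0.04 for ALKBH5 rescue against shCtrl and -0.09 for shALKBH5 against shCtrl, and that of the mitochondrial genes was -0.0017, -0.07 and -0.05. Over all genes tested the medians were 0.01, -0.01 and -0.03. With the block, the log2 values of the 37 genes ran from -0.30 to 0.29, from -0.47 to 0.21 and from -0.44 to 0.19.

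**Figure D5:**
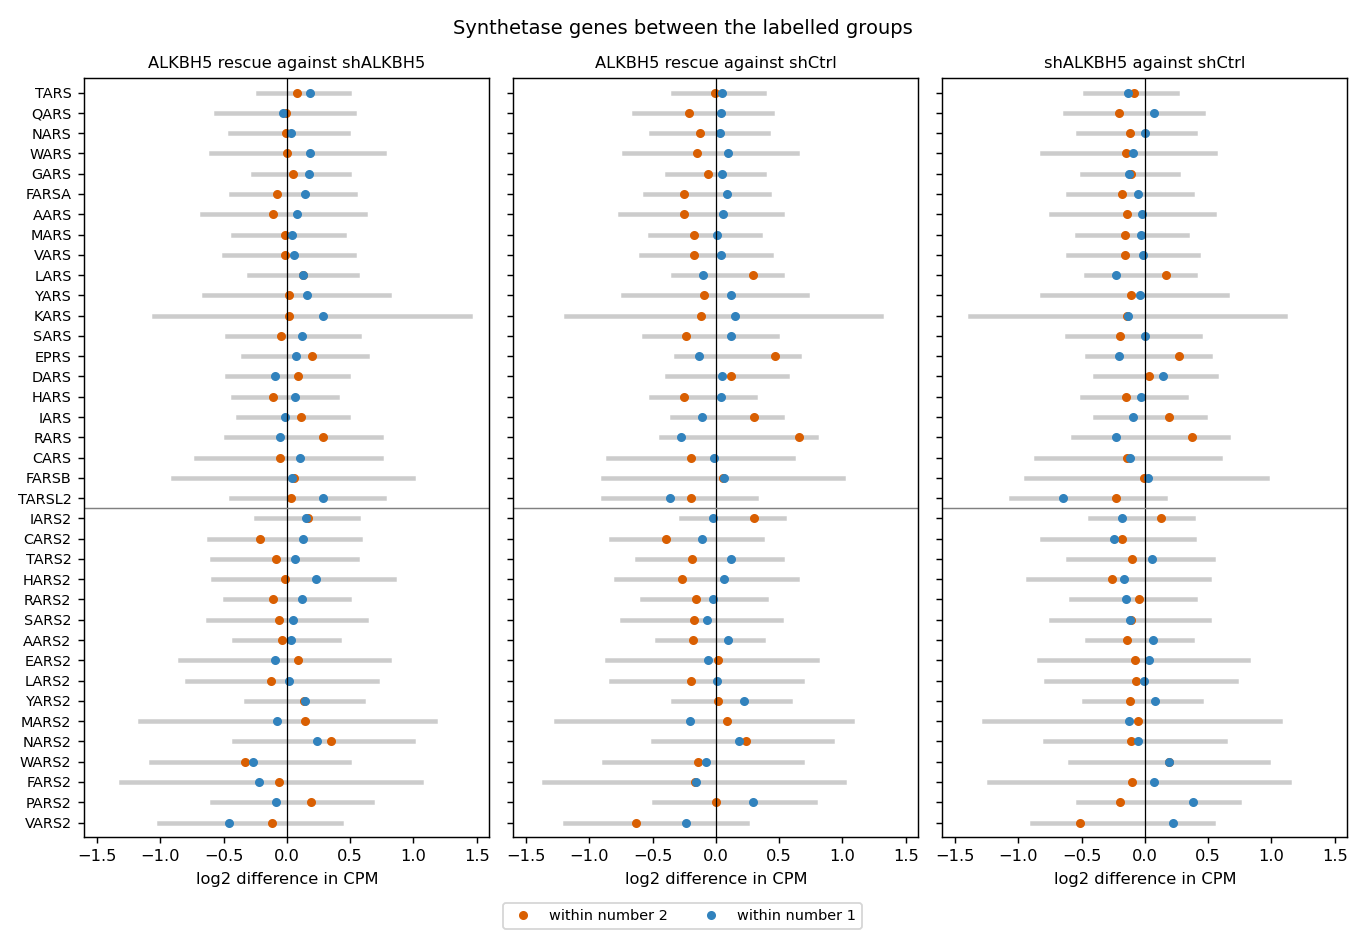
Log2 difference in CPM between the labelled groups for each synthetase gene, cytosolic above and mitochondrial below the line, with the difference within number 2 in orange, that within number 1 in blue and the 95% interval of the fit without a block in grey. The intervals of all 37 genes include 0 in all 3 comparisons.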

How the data were processed

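The submitters' processing notes name kallisto 0.43.1, CASAVA and hg38, without options or strand setting. The deposited tables give estimated counts and TPM for 179973 transcripts. Per the labels' protocols, mRNA was oligo-dT selected, primed at random and amplified by PCR, with no mention of molecular identifiers. Gene sums of the authors' estimated counts used GENCODE 29, which matched 163714 transcripts (91.0%). Another 14226 transcripts on alternative scaffolds (2.93% to 3.11% of counts) were assigned through its symbol table, a choice made after seeing the data. The 2033 unmatched transcripts (0.194% to 0.207%) were left out. Sums were rounded. edgeR 4.0.16 in R 4.3.3 (TMM, filterByExpr, quasi-likelihood test, 6 libraries) compared the groups with 3 residual degrees of freedom, and the replicate numbers beside a group term with 2, with Benjamini-Hochberg adjustment over 14595 genes at 0.05 and 95% intervals. SE is the absolute log2 fold change over the root of F. Same-numbered libraries deviated together (correlations 0.603 to 0.736 in 3 separate values). The numbers of the titles were therefore taken as pairing the libraries in the fit with a block, while the main group fit left this pairing out. The common coefficient of variation estimated by edgeR was 27.6% without the block and 10.5% with it. Chi-square per gene between libraries was at least 3.22, above sampling noise. The fits were also run on simulated counts whose spread came from the fit with the block, and no result here rests on them. Alternatives were RLE factors, DESeq2 1.42.0, limma-voom (limma 3.58.1), other filters and transcript sets, a replicate block and leaving out each library. Named genes are the called members with the largest changes per class and direction, 7 fixed genes, the 3 smallest p per group comparison, the extremes of level and up to 4 genes per list by p. The other genes of those lists are given as counts. Members and lists were chosen with earlier results of these data known, and the ATF4 and pathway lists come from general knowledge.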

Additional observations from a re-analysis of the deposited data

How the results depend on the processing

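For replicate number 2 against 1, DESeq2 called 4902 genes and limma-voom 6739, beside 6721 by edgeR. Leaving out 1 library gave 3953 to 6890 genes, 3 to 8 cytosolic synthetases higher and 2 to 4 lower, and 1 to 2 mitochondrial ones higher and 4 to 8 lower, with the lowest counts without either library labelled shALKBH5. The cytosolic median ran from 0.0033 to 0.20 and the mitochondrial one from -0.32 to -0.18. With protein-coding transcripts alone these medians were 0.13 and -0.14, and without a filter the mitochondrial one was -0.22. The ratio of cytosolic to mitochondrial level, 6.05 as a mean of 6 TPM ratios, was 5.36 from CPM per kilobase of effective length. With the replicate block, a pairing of libraries by number, edgeR called 1 gene for ALKBH5 rescue against shCtrl, 1 for shALKBH5 against shCtrl and 0 for ALKBH5 rescue against shALKBH5, and DESeq2 with the block, added after seeing the data, called 1 for shALKBH5 against shCtrl. None was a synthetase, and the block changed no other call. DESeq2 did not call NARS, SARS, SARS2 and WARS2, and protein-coding transcripts alone did not call NARS, SARS and CARS2. Over all alternatives other than a left-out library, single-gene results gained a call 20 times and lost one 10 times with the sign kept. These counts include the named genes of the other lists. Signs turned for RARS (0.036) and IARS2 (0.028) with protein-coding transcripts alone, for IARS2 without a filter (0.0037) and for CARS on the reference chromosomes alone (-0.51). With 1 library left out, values of genes that were not called crossed 0: EPRS from -0.017 to 0.33, HARS from -0.14 to 0.0034, LARS from -0.046 to 0.20, RARS from -0.25 to 0.27, IARS from -0.20 to 0.056, TARSL2 from -0.23 to 0.030, AARS2 from -0.00077 to 0.14, IARS2 from -0.064 to 0.15, PARS2 from -0.27 to 0.016, and CARS2 for ALKBH5 rescue against shCtrl from -0.53 to 0.017. The cause of these changes was not tested beyond the fewer libraries or transcripts used. Genes under 10 CPM, such as TARSL2, PARS2, VARS2 and FARS2, rest on few counts.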
